A study of Rattus norvegicus with 16 samples.

Results

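The aorta was studied in male wild type Sprague-Dawley rats aged 1 year, of which 4 had breathed room air (RA) throughout and 4 had been kept in 85% oxygen between postnatal days 1 and 14. The 8 aorta libraries, out of 16 libraries in the series, were chosen by their tissue label, and the other 8 are from kidney. The RNA came from the aortic arch and thoracic aorta after polyA selection, and the exposed animals lived in RA after the 2 weeks of hyperoxia. Nothing in the sources used here ties the pups to litters, and the hour at which the tissue was taken is not given. The paper reports deaths among the pups exposed to hyperoxia, so the exposed aortas are from survivors. Its groups at 1 year held females and males, and the sex of the aorta libraries was not checked against genes.

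The aorta is an elastic artery whose wall is built of smooth muscle cells, sheets of elastin and collagen fibres, with an endothelium inside and fibroblasts, nerves and fat outside. A bulk library mixes RNA of all of these, and fewer cells of a type cannot be told apart from less RNA per cell. The counts are listed by Ensembl gene identifier without gene names, and 0 of the 23918 identifiers could be named from the table of rat genes used here. The circadian and matrix genes and those measured by qRT-PCR could therefore not be picked out by name. Nor could the marker lists of the cell types of the vessel wall, so the tissue label was not checked against markers. Any of these genes may be among those given by identifier or counted below. In place of names, 2 induced and 2 suppressed genes are given by identifier, and the remaining genes are described by number, level and size of the difference.

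Estimated counts per library ran from 33611558 to 47021630 in RA and from 68643331 to 83929128 in hyperoxia, so that each hyperoxia library was deeper than each RA library. The 10 most abundant genes of a library took 12.4% to 39.6% of the counts in RA and 12.3% to 24.2% in hyperoxia. Between 16410 and 17065 genes had a count in the RA libraries, and between 17504 and 18008 in the hyperoxia libraries. When counts were drawn at random down to the smallest total (thinned counts), these numbers were 16370 to 16992 in RA and 17046 to 17357 in hyperoxia, still without overlap.

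In the aorta at 1 year, 2 genes were 9.32-fold and 4.67-fold higher and 1 gene was 4.72-fold lower in hyperoxia-exposed animals than in RA animals. These 3 genes, 0.0199% of the 15086 genes tested, had a false discovery rate (FDR) under 0.1 by the quasi-likelihood test of edgeR and a log2 fold change over 0.32 in size, the thresholds of a call. The 2 induced genes are 0.0133% and the suppressed gene 0.00663% of the genes tested. The values below are counts scaled to 1000000 per library after TMM normalization (CPM).

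ENSRNOG00000014448 was induced. The RA animals 1 to 4 had 5.12, 2.67, 3.04 and 3.05 CPM, and the hyperoxia-exposed animals 1 to 4 had 39.99, 25.1, 39.4 and 25.1 CPM. All 4 exposed animals lay above all 4 RA animals, with 2109 to 2792 counts in the exposed and 85 to 214 in the RA aortas. The mean of the exposed animals was 32.4 ± 8.43 CPM against 3.47 ± 1.11 CPM (SD, n = 4 each), and the log2 fold change was 3.22 ± 0.27 (standard error) at an edgeR FDR of 0.00502.

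ENSRNOG00000013408 was the other induced gene and stood at a higher level. The RA animals had 15.8, 12.2, 15.7 and 22.1 CPM, and the exposed animals 77.6, 82.2, 84.0 and 63.8 CPM. The groups did not overlap, and the exposed aortas lay close together, with a mean of 76.9 ± 9.14 CPM against 16.5 ± 4.11 CPM in RA (SD, n = 4 each). The difference was 2.22 ± 0.19 on the log2 scale (standard error), with the same edgeR FDR of 0.00502.

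ENSRNOG00000060511 was suppressed. The RA animals had 34.0, 20.0, 45.1 and 23.5 CPM, and the exposed animals 5.71, 6.42, 5.11 and 8.70 CPM. The RA animals differed among themselves more than the exposed animals did, and the groups did not overlap. The log2 fold change was −2.24 (standard error 0.28), and its FDR of 0.0999 from edgeR lay just under the threshold. In 2 draws of thinned counts, to the smallest total of the 8 libraries, the gene had an FDR of 0.111 and 0.0958 from edgeR, and with 1 animal left out of 0.0550 to 0.465.

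ENSRNOG00000018413 had the next smallest p-value among genes with a lower level in hyperoxia and did not pass the threshold. The RA animals had 36.4, 64.8, 54.9 and 53.4 CPM, and the exposed animals 7.76, 16.6, 12.6 and 18.3 CPM. The groups did not overlap, with means of 52.4 ± 11.8 CPM and 13.8 ± 4.69 CPM (SD, n = 4 each), and the difference was −1.92 ± 0.28 on the log2 scale (standard error, edgeR FDR 0.131). With DESeq2, the tool named by the paper, its FDR was 6.94e-08.

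**Figure D1:**
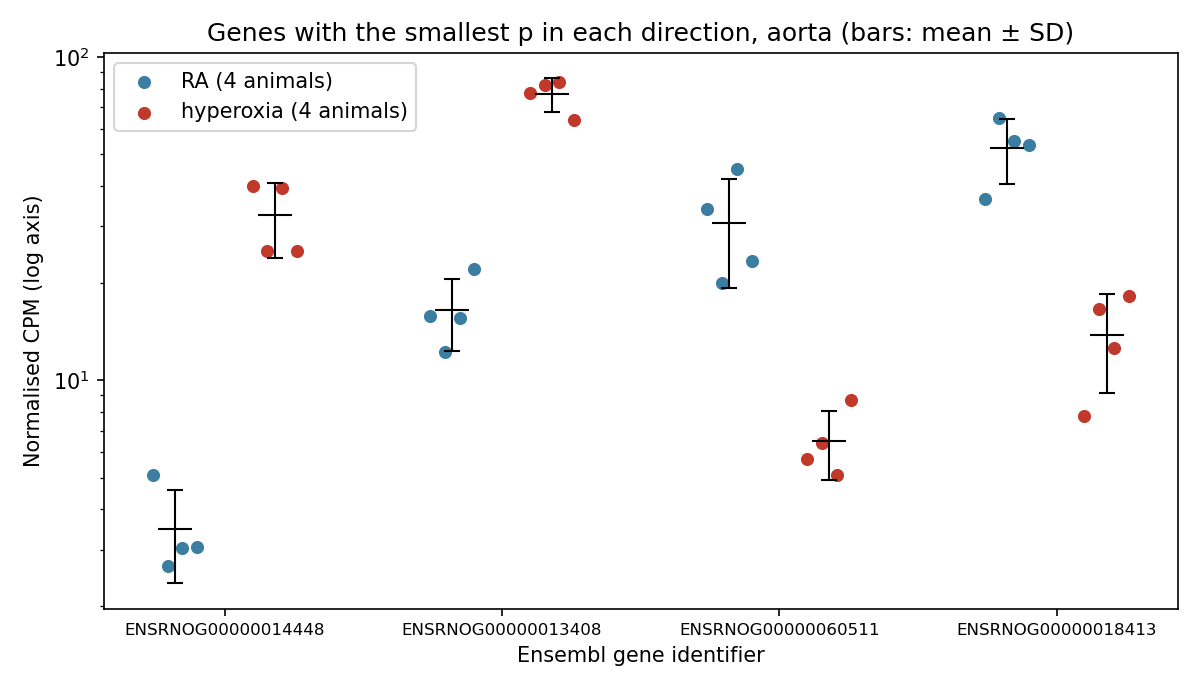
Normalised CPM on a log axis for the 4 genes given by identifier, with 1 point per animal, the mean as a line and error bars of 1 SD (n = 4 in RA, blue, and 4 in hyperoxia, red). In each gene the 4 exposed animals lie on one side of the 4 RA animals, from 25.1 to 39.99 CPM against 2.67 to 5.12 CPM in ENSRNOG00000014448. The genes were picked for the smallest edgeR p in these same libraries, so the separation is not separate support for them.

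Thinning all 8 libraries to 33611534 counts left these differences close to their size. The log2 fold change was 3.31 for ENSRNOG00000014448, 2.19 for ENSRNOG00000013408, −2.16 for ENSRNOG00000060511 and −1.93 for ENSRNOG00000018413. On thinned counts the exposed animals had 24.4 to 40.5 CPM of ENSRNOG00000014448 and the RA animals 2.65 to 4.32 CPM. Both induced genes passed the thresholds with edgeR on thinned counts, with FDR of 0.00290 and 0.00423.

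Most genes differed little between the groups. The median size of the log2 fold change over the 15086 genes was 0.21, and 95% of the genes lay at or under 0.92. Before adjustment, 502 genes (3.33%) were higher and 892 genes (5.91%) lower in hyperoxia at a p under 0.05, so that 36.0% of them were higher. That share was 33.4% to 37.9% under the other scalings of the libraries and 35.7% on thinned counts. The RA and exposed animals did not overlap in 693 genes (4.59%).

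Genes at an unadjusted p under 0.05 were found at low and high levels of expression, and their share rose with the level. The genes were split by level into 4 classes of equal size. In the class with the lowest levels, 0.159 to 3.07 CPM, 4.83% had such a p, and in the class with the highest levels, from 39.5 CPM up, 13.0%. In the classes between, the shares were 8.14% and 10.98%. The size of the difference did not rise with the level. The median size of the log2 fold change was 0.359 in the lowest class, 0.221 and 0.163 in the classes between, and 0.172 in the highest. Lower genes outnumbered higher ones in each class, by 105 to 77 in the lowest and by 298 to 193 in the highest.

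**Figure D2:**
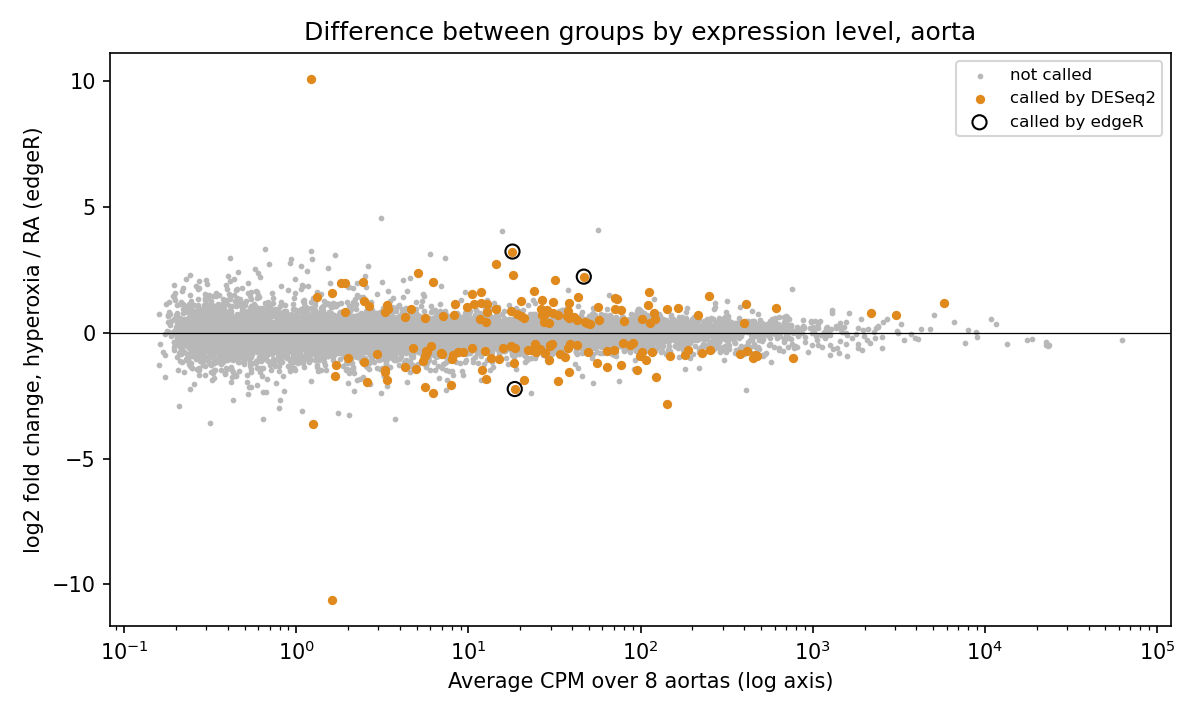
Log2 fold change of hyperoxia over RA from edgeR for 15086 genes against their average CPM over the 8 aortas on a log axis, with genes called by DESeq2 in orange and the 3 genes called by edgeR circled. The 170 orange genes have mean levels of 1.14 to 5759 CPM and do not reach either end of the range of expression. In each direction, 1 gene lies far from the rest.

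DESeq2 called 170 genes (1.13% of the 15086), 85 induced and 85 suppressed, at the same thresholds. It gave no FDR to some genes with low counts, which could not be called, whereas edgeR adjusted over all 15086 genes. Each of the 170 had an unadjusted p under 0.05 with edgeR, and 3 passed its FDR. Over all genes tested, 3.33% were higher and 5.91% lower at such a p. The mean level of the induced genes had a median of 27.5 CPM and that of the suppressed genes 24.2 CPM, so the calls in both directions came from genes of like abundance. The RA and exposed animals did not overlap in 76 of the induced and 62 of the suppressed genes, against 4.59% of all genes tested. In the other 32 genes, 9 induced and 23 suppressed, at least 1 animal lay within the range of the other group. The 170 genes were picked for their group difference in these same 8 libraries, so these counts are not separate support for them.

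On thinned counts, 144 of the 170 genes were called by DESeq2 again, 76 induced and 68 suppressed. All 169 that could be tested there kept their direction, and their log2 fold changes moved by a median of 0.014 and at most by 1.21. The gene that could not be tested there was the induced gene at 0 in every RA aorta, described below. Thinned counts are a part of the same counts, so the kept direction is not separate support. In a second draw of thinned counts 145 were called again, and 130 in both draws.

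The largest changes among the 170 belonged to 2 genes at 0 in a whole group. One was at 0 in all 4 RA aortas and at 0.196 to 4.94 CPM in hyperoxia, with 14 to 350 counts in a library. It was at least 29.3-fold higher in hyperoxia, taking 3 counts per library as the limit that a count of 0 allows. That bound is from the full counts, as this gene did not pass the filter on low counts in the first draw of thinned counts. The other was at 0 in all 4 hyperoxia aortas and at 0.365 to 7.83 CPM in RA, or at least 87.4-fold lower in hyperoxia. Neither passed the FDR of edgeR, at 0.510 and 0.292. Without the animal with the highest level, the bounds were 17.9-fold and 47.5-fold. The bounds cover counting error only. Over all genes, 39 were at 0 in each RA aorta and had a count in each exposed aorta, against 3 the other way, and on thinned counts these numbers were 19 and 4.

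The number of genes called by DESeq2 moved with single animals. It was 1019 without RA animal 4 and 606 without hyperoxia animal 1, and 62 to 127 in the fits without each of the other 6 animals. Without hyperoxia animal 1, 153 genes were induced and 453 suppressed. Of the 170 genes, 38 were called in each of the 8 fits that left out 1 animal, 21 induced and 17 suppressed. With edgeR, the 2 induced genes were called in each of these fits.

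**Figure D3:**
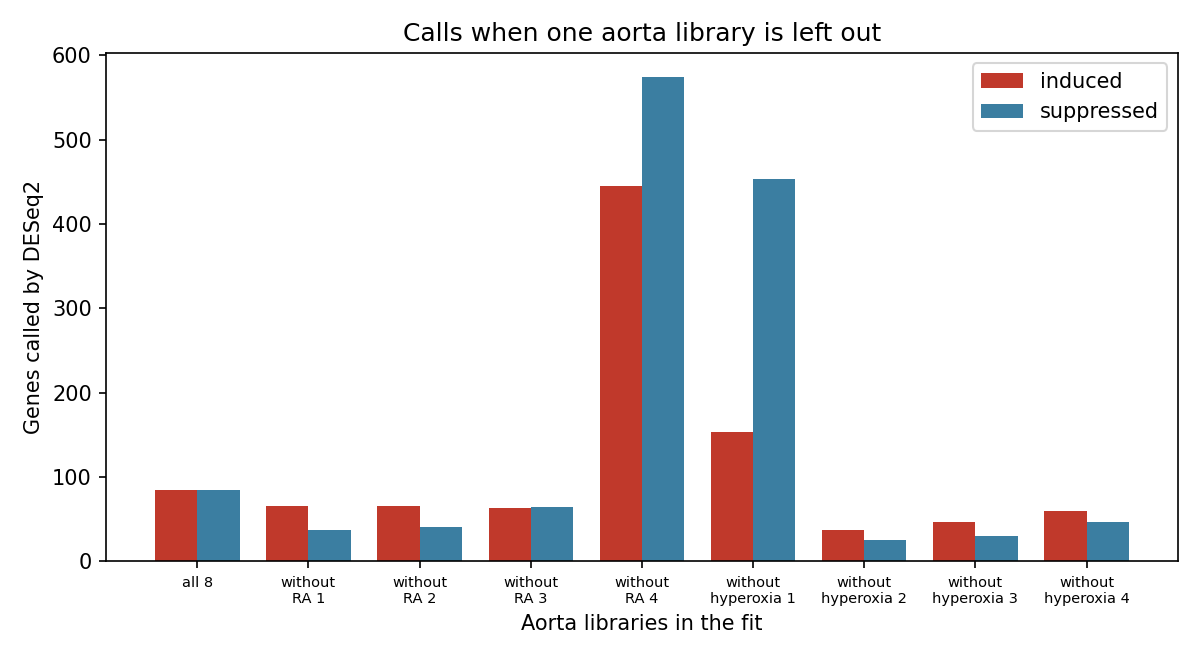
Number of genes called by DESeq2 as induced (red) and suppressed (blue) with all 8 aortas and without each aorta in turn. With all 8 the bars are at 85 and 85, without RA animal 4 they are at 445 and 574, and without hyperoxia animal 2 at 37 and 25.

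The RA aortas were more unlike each other than the exposed aortas. The median SD of a gene on the log2(CPM + 1) scale was 0.28 among RA animals and 0.20 among exposed animals, and the SD was larger in RA for 67.5% of the genes. The RA libraries were also the shallower ones and had the wider range of counts taken by the 10 most abundant genes, and the part of either in the spread was not tested.

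The kidneys of rats with the same 2 exposures gave a second tissue in which to read the aortic genes, with 4 kidneys from each group. The authors removed 1 hyperoxia kidney as an outlier, without naming it in the text, and all 4 are used here. Of the hyperoxia libraries, 3 carry the same number in aorta and kidney and may come from the same animals, while no RA library does. ENSRNOG00000014448 ranged from 2.58 to 7.25 CPM in RA kidneys and from 15.2 to 17.0 CPM in hyperoxia kidneys, without overlap (log2 fold change 1.64, standard error 0.31). ENSRNOG00000018413 ranged from 35.6 to 49.7 CPM in RA kidneys and from 18.6 to 29.0 CPM in hyperoxia kidneys, also without overlap (log2 fold change −0.79, standard error 0.15). The share of all kidney genes without overlap is not given here, so how unusual this is in the kidney cannot be judged. ENSRNOG00000013408 overlapped between the groups in the kidney (2.35 to 7.87 CPM in RA and 6.66 to 11.3 CPM in hyperoxia), and ENSRNOG00000060511 was at 0.527 CPM or lower in each kidney. None of the 3 genes tested in the kidney had an FDR under 0.1 there with edgeR (0.950 for each). Before adjustment over all genes tested there, the edgeR p was 0.000543 for ENSRNOG00000014448 and 0.000602 for ENSRNOG00000018413. It was 0.0819 for ENSRNOG00000013408. In fits without each hyperoxia kidney in turn, the log2 fold change of ENSRNOG00000014448 was 1.62 to 1.67 and the lowest FDR of the 3 genes was 0.332.

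The 4 genes were chosen by their p-values in the aorta, which favours a larger fold change there, so the difference between the tissues is given for them as a description. The interaction fit also treats all 16 libraries as independent, although 3 hyperoxia aortas and kidneys may share an animal. For ENSRNOG00000014448 the aortic minus the kidney log2 fold change came to 1.62 (with a standard error of 0.42 and an FDR of 0.489 from edgeR's interaction term and 0.0752 from DESeq2). For ENSRNOG00000018413 it was −1.09 (standard error 0.33, FDR 0.599 from edgeR and 0.147 from DESeq2). ENSRNOG00000013408 had 1.46 (standard error 0.46, FDR 0.599 from edgeR and 0.212 from DESeq2). ENSRNOG00000060511, which was low in each kidney, had −1.96 (standard error 0.66, FDR 0.599 from edgeR and 0.155 from DESeq2). Over all 16025 genes tested, 0 passed the interaction test with edgeR, 1277 had an unadjusted p under 0.05, and DESeq2 called 87.

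The wider set of aortic genes had small median differences in the kidney, where the suppressed genes leaned lower with all hyperoxia kidneys used. Of the 85 induced genes called by DESeq2 in the aorta, 81 were tested in the kidney, where 42 had a higher and 39 a lower mean in hyperoxia and the median log2 fold change was 0.0079. Of the 85 suppressed genes, 79 were tested, with 28 higher and 51 lower and a median of −0.058. Among the latter, 11 had an unadjusted p under 0.05 in the kidney, 9 of them lower, or 13.9% against 4.96% of all 15069 genes tested there. Among the induced genes it was 5, or 6.17%. Without hyperoxia kidney 2, 39 of the suppressed genes were higher and 40 lower in the kidney, with 17.7% at an unadjusted p under 0.05 against 9.71% of all genes tested. Without that kidney 13 of the 81 induced genes had such a p, 7 higher and 6 lower. In the fits without each of the other hyperoxia kidneys, 26 to 33 of the suppressed genes were higher and 46 to 54 lower.

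**Figure D4:**
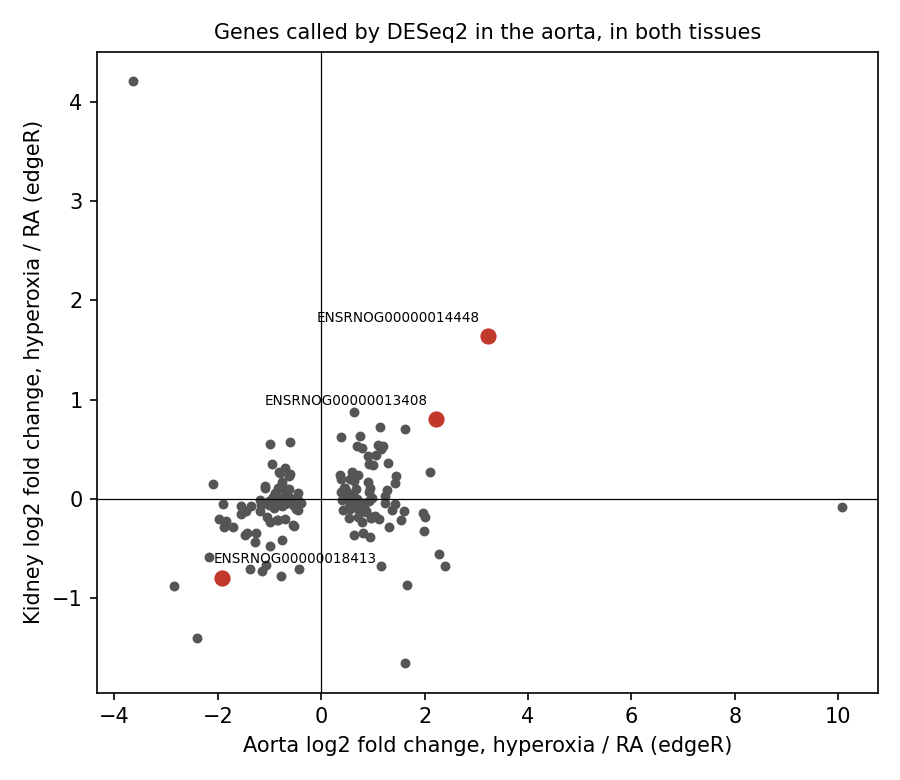
Log2 fold changes of hyperoxia over RA from edgeR in the aorta (horizontal axis) and kidney (vertical axis) for the genes called by DESeq2 in the aorta and tested in the kidney, with genes given by identifier in red. ENSRNOG00000014448 and ENSRNOG00000013408 lie above 0 and ENSRNOG00000018413 below 0 in both tissues, while most other genes lie near 0 in the kidney.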

How the data were processed

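Paired-end reads of polyA-selected RNA were quantified by the authors with kallisto on rat transcripts (build rn6.0), and tximport gave one value per gene. The deposited values are unnormalized estimated counts (expected counts) under Ensembl gene identifiers. The annotation, tool versions and tximport setting are not given in the sources used here. Of the values in an aorta library, 24.2% to 28.7% were fractional, so the tables were rounded. The filterByExpr step of edgeR 4.0.16 removed genes with low counts, TMM scaled the libraries, and the 8 aortas were compared with its quasi-likelihood test and Benjamini-Hochberg adjustment in R 4.3.3. Standard errors came from the F statistics. An interaction of tissue and exposure was fitted on 16 libraries. As alternatives, DESeq2 1.42.0, voom with quality weights (limma 3.58.1), other scalings and filters, thinned counts and fits without each library were run, and kidney fits without each hyperoxia kidney were a later addition, made with the data seen. The edgeR, DESeq2 and voom tests, edgeR on thinned counts and the edgeR interaction test were checked on simulated counts. The DESeq2 interaction, DESeq2 on thinned counts and the other scalings and filters were not. The p-values weigh the difference between groups against the spread between animals, 4 in a group. The depth of 33611558 to 83929128 counts sets the counting error.

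The libraries, lists and tests were chosen with earlier results of these data known. The identifiers to print were the 2 with the smallest edgeR p in each direction. None of the 350 members of the 28 gene and marker lists could be matched, so the parts of the rule that name genes by list, by qRT-PCR or by symbol gave none, and no sequences are shown.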

Additional observations from a re-analysis of the deposited data

Results flagged for a closer look

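Libraries far from their group were looked for in 22 sets of 4 libraries (total counts, percent of counts in the 10 most abundant genes, number of genes with a count, and the 4 genes in each tissue). This gave 1, where chance gives about 1.1. RA aorta 1 had 5.12 CPM of ENSRNOG00000014448, while RA aortas 2 to 4 had 2.67 to 3.05 CPM and the lowest exposed aorta 25.1 CPM.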

How the results depend on the processing

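With edgeR, 3 aortic genes passed (2 induced, 1 suppressed). DESeq2 called 170 (85 and 85), voom with quality weights 20 (8 and 12), and edgeR without a filter 8 (4 and 4). On thinned counts DESeq2 gave 151 (78 and 73), and a second draw, chosen after seeing the data, 155 (75 and 80). Scaling by library totals, edgeR on thinned counts in the first draw and an FDR under 0.05 each left 0 suppressed genes, with 845, 1335 and 1394 genes of either direction at an unadjusted p under 0.05. Over the fits without 1 library, the counts were 2 to 15 with edgeR (2 to 11 induced, 0 to 4 suppressed, 804 to 2321 genes at an unadjusted p under 0.05) and 62 to 1019 with DESeq2 (37 to 445 and 25 to 574). The 15 came without RA animal 4 and 6 without hyperoxia animal 4. The interaction test, which takes libraries of possibly shared animals as independent, gave 0 with edgeR (1277 at an unadjusted p under 0.05), 87 with DESeq2, and 0 to 2 without 1 library, 2 of them without RA aorta 4 and 1 without hyperoxia kidney 2. For these changes the cause was not tested. ENSRNOG00000014448 and ENSRNOG00000013408 kept their direction and passed the threshold in all 28 alternatives, with log2 fold changes of 3.10 to 3.48 and 2.11 to 2.42. ENSRNOG00000060511 (−2.47 to −1.98) and ENSRNOG00000018413 (−2.08 to −1.72) kept their direction in all 28 and their side of the threshold in 20 and 15. No paired analysis was possible because no library number occurs in both aorta groups. Depth was confounded with exposure in the aorta, and thinning matched total counts but not the number of genes with a count.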
